A study of Mus musculus with 7 samples.

Results

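Osmoprotective and small heat shock genes were described in developing mouse kidney and in a collecting duct cell line. The list names 10 genes: the small heat shock protein genes Cryab, Hspb1 and Hspb8, the Hsp70 gene Hspa1a, the prostaglandin synthase gene Ptgs2, the osmolyte genes Akr1b3, Slc5a3, Slc6a6 and Slc6a12, and Nfat5, which encodes a transcription factor. A gene was measured where the array annotation tied at least 1 probe set to it and to no other gene. This held for 9 of the 10 genes, with 25 probe sets, of 18193 genes and 34945 probe sets in all. Akr1b3, the aldose reductase gene whose enzyme makes sorbitol, was not analysed here. The list was drawn up with 2 of its members, Cryab and Ptgs2, already noted as high in the cell line, so the members were chosen by mIMCD-3 values of these genes and by known function. The cell line values below are therefore a description and carry no test.

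RNA was hybridised to 7 Affymetrix mouse arrays. One group was mIMCD-3, a line of inner medullary collecting duct cells, represented by 1 array of a freshly isolated subclone that was grown to confluency in DMEM. The labels give no osmolality for this culture. The other groups were microdissected from mouse kidneys at E12.5, the embryonic stage of the study: ureteric bud tips, ureteric bud stalks and metanephric mesenchyme, with 2 biological replicate arrays each. The labels give no genotype, strain or treatment for these tissues, and nothing in them ties the replicates to single embryos. The tissue arrays had been published earlier than the cell line array, so differences between mIMCD-3 and the tissues cannot be told apart from differences between these rounds of work.

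Cells of the renal inner medulla face a salt and urea concentration far above that of plasma. They balance it by taking up or making small organic osmolytes: sorbitol, myo-inositol, betaine and taurine. NFAT5, also called TonEBP, is the factor that switches on genes of this response when tonicity rises, through DNA elements called tonicity enhancers (TonE). Heat shock proteins of the small and the Hsp70 families bind unfolded proteins, and both are abundant in the inner medulla, as is cyclooxygenase 2, the product of Ptgs2. The embryonic kidney sampled here is a branching epithelial bud within mesenchyme and has no medulla yet.

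Promoter sequence is shown for Hspb1 and Hspa1a, 1 from each chaperone family, because their matches lie before the start of transcription and can be shown in full. RefSeq windows on GRCm38.p6, with 250 bases before and 50 after the start of transcription, were found for 7 of the 9 measured genes. The letters TGGAAA (the TonE core), GAANNTTC and TTCNNGAA (pairs of heat shock units) were searched on both strands, with N for any base. The upstream bases of each gene follow, 5′ to 3′ on the gene's strand, with matches in capitals. Hspb1 lies at chr5:135887669-135887918 on the plus strand, and Hspa1a at chr17:34972157-34972406 on the minus strand.
Hspb1: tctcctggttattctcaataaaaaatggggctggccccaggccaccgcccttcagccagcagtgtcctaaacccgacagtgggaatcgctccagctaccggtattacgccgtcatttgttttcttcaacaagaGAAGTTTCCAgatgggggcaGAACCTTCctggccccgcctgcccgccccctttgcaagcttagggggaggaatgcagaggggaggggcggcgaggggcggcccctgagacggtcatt
Hspa1a: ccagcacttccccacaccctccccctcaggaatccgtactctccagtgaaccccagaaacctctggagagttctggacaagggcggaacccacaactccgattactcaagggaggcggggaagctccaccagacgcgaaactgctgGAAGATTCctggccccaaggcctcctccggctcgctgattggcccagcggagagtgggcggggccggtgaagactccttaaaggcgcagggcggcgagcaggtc

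The Hspb1 window held GAANNTTC at -117 and at -97, counted from the start of transcription to the first base of the match, and the TonE core at -113 on the opposite strand. The TonE match overlaps the heat shock match at -117, so their letters form 1 run of capitals. The Hspa1a window held GAANNTTC at -104. The Hspb8 window, not printed, held GAANNTTC just after the start, at position 3, and of 5 windows of Slc6a12 only 1 held a TonE core, at -75. The windows of Ptgs2, Slc5a3 and Nfat5 held none of these letters. Of all 32851 windows, 21.4% held the TonE core, 7.86% held GAANNTTC and 8.52% held TTCNNGAA. A match describes letters and is not evidence of binding, and its absence concerns this window alone.

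In mIMCD-3, 5 of the 9 measured genes lay at least 1 log2 unit above all 6 tissue arrays, and 0 lay as far below them. By the same rule, 6.31% of all genes lay above, 5.13% below and 11.4% on either side. The 5 genes were Cryab, Hspb1, Ptgs2, Slc5a3 and Slc6a6. Cryab and Ptgs2 were already noted as high in mIMCD-3 when the list was drawn up. The count and the median given below are therefore no measure of an excess over all genes. Slc5a3, at 1.49 log2 units above the highest tissue array, was the nearest inside the limit, and Hspb8, which fell just short of 1 log2 unit, was the nearest outside. The median difference of mIMCD-3 minus the mean of the 4 bud arrays was 1.70 over the members and -0.05 over all genes. With a limit of 2 log2 units 3 members lay beyond the range either way, each above it (Cryab, Hspb1 and Ptgs2). With 0.5, 8 did, each above it, which is all measured members but Slc6a12. Of all 18193 genes, 652 and 4485 lay beyond the range either way at these limits.

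**Figure D1:**
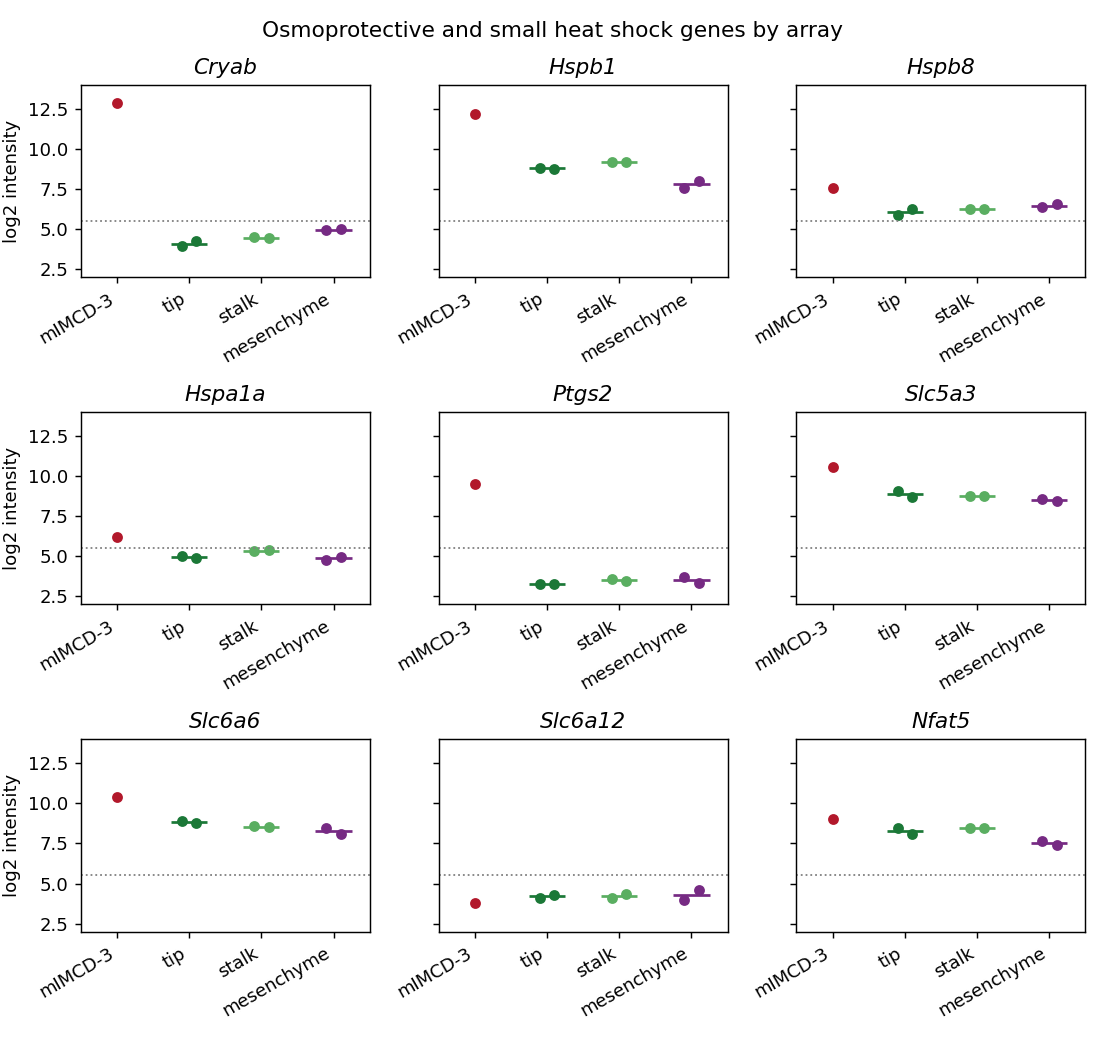
Log2 intensity (vertical axis) of the 9 measured genes in mIMCD-3 (1 array), tip, stalk and mesenchyme (2 arrays each). Points are arrays, short lines are group means, and the dotted line is the median of the array medians. Cryab and Ptgs2 lie under the line in all 6 tissue arrays and reach 12.87 and 9.50 in mIMCD-3.

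Cryab encodes alpha B-crystallin, a small heat shock protein first known from the eye lens and muscle. Its log2 intensity was 12.87 in mIMCD-3, against 3.96 and 4.25 in tip, 4.51 and 4.43 in stalk and 4.93 and 4.99 in mesenchyme. The cell line was 8.59 log2 units above the mean of the bud arrays, which is a ratio of 385 in intensity and rank 1 of 18193 genes. Every tissue value lay below its array's median, where differences of this platform are compressed, so the ratio is an approximate size. A second Cryab probe set gave 7.80 for the same difference, with 11.81 in mIMCD-3. The remaining probe set lay below the lower quartile on all 7 arrays and gave -0.28.

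Hspb1, the gene of Hsp27, a chaperone that also binds actin, was well above the array medians in every sample. Its log2 intensity was 12.20 in mIMCD-3, against 8.83 and 8.76 in tip, 9.17 and 9.20 in stalk and 7.60 and 8.03 in mesenchyme. The cell line value lay 3.21 above the bud mean (a ratio of 9.26) and 4.39 above the mesenchyme mean. The other Hspb1 probe set gave 3.31 against bud. No array of 1 group overlapped another group for this gene, and the order was mIMCD-3, stalk, tip and mesenchyme in both probe sets.

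Hspb8, which acts with the co-chaperone Bag3 in clearing misfolded proteins, had the smallest difference of the small heat shock members. Its log2 intensity was 7.57 in mIMCD-3, against 5.88 and 6.28 in tip, 6.26 and 6.26 in stalk and 6.37 and 6.57 in mesenchyme. The difference from bud was 1.40, a ratio of 2.63. Its 3 probe sets differed in size, with 3.06 and 1.07 in the other 2, and the set with 3.06 lay 2.37 above its highest tissue array. Which of these sets is used therefore decides whether Hspb8 counts as beyond the tissue range.

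Ptgs2 was close to the bottom of the scale in every tissue array. Its log2 intensity was 9.50 in mIMCD-3, against 3.28 and 3.28 in tip, 3.62 and 3.49 in stalk and 3.72 and 3.34 in mesenchyme. All 6 tissue values lay below the lower quartiles of their arrays. With each bud array taken at its lower quartile, the cell line lay at least 5.41 log2 units above bud, a ratio of at least 42.5. The measured difference was 6.08, and 4.57 by the second probe set, whose tissue values also lay below the lower quartiles.

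The myo-inositol transporter gene Slc5a3 and the taurine transporter gene Slc6a6 were bright in every group. Slc5a3 had a log2 intensity of 10.58 in mIMCD-3, against 9.09 and 8.69 in tip, 8.74 and 8.76 in stalk and 8.58 and 8.47 in mesenchyme. Slc6a6 had 10.39 in mIMCD-3, against 8.88 and 8.79 in tip, 8.59 and 8.51 in stalk and 8.49 and 8.09 in mesenchyme. The differences from bud were nearly alike, at 1.76 for Slc5a3 (a ratio of 3.39) and 1.70 for Slc6a6 (a ratio of 3.25).

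Other probe sets of these transporters disagreed on the size. For Slc5a3, a second set gave 3.35, while another, below the lower quartile on every array, gave 0.04. For Slc6a6, the 3 other probe sets gave 0.27, 0.20 and -0.28, so the difference in the cell line rests on 1 of 4 probe sets. The mean over all Slc6a6 probe sets was 0.47 above bud. Slc6a12, the betaine transporter gene, had a log2 intensity of 3.80 in mIMCD-3, against 4.10 and 4.31 in tip, 4.09 and 4.35 in stalk and 3.95 and 4.60 in mesenchyme. All of these lay below the array medians, the groups of tissue overlapped, and the difference of -0.41 from bud stayed within 1 log2 unit of the tissue range.

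Nfat5 itself was expressed in every group, and the cell line exceeded the bud by little. Its log2 intensity was 9.00 in mIMCD-3, against 8.47 and 8.12 in tip, 8.46 and 8.48 in stalk and 7.63 and 7.42 in mesenchyme. The difference of mIMCD-3 was 0.61 from bud (a ratio of 1.53) and 1.47 from mesenchyme. Among the 6 Nfat5 probe sets the difference from bud lay between -0.15 and 0.61. The cell line thus lay within 1 log2 unit of the tissue range for the gene of the tonicity factor. By the probe sets used, 2 of the 3 measured transporters lay beyond it, Slc6a6 by only 1 of its 4 sets.

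**Figure D2:**
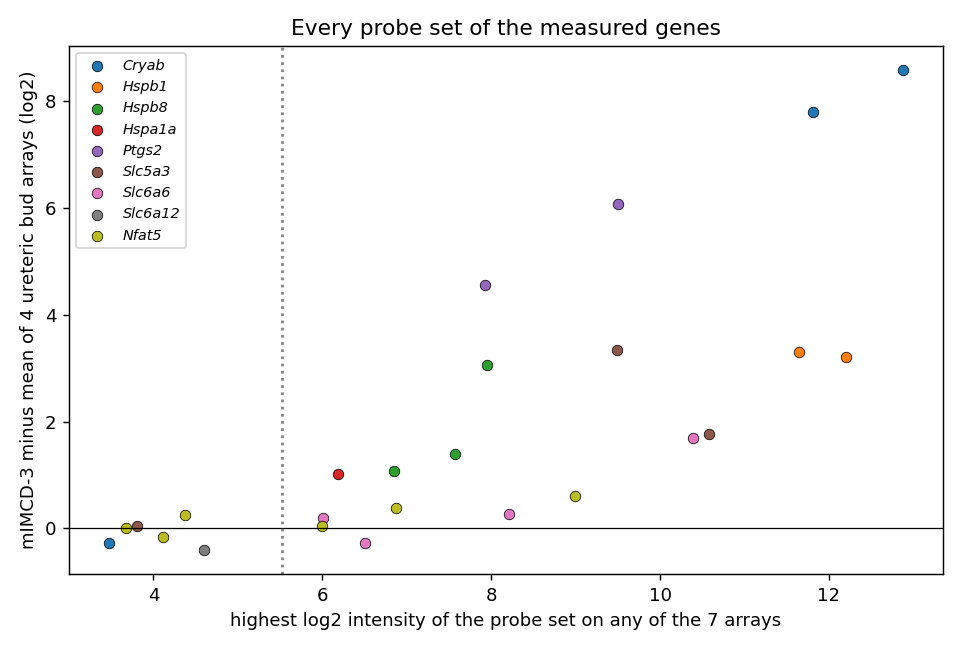
All 25 probe sets of the 9 measured genes. The horizontal axis is the highest log2 intensity on any of the 7 arrays, the vertical axis the log2 difference of mIMCD-3 minus the mean of the 4 bud arrays, and the dotted line the median of the array medians. Probe sets left of the dotted line show differences near 0, including those of Cryab and Slc5a3, whose brighter sets reach 8.59 and 3.35.

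Hspa1a encodes inducible Hsp70 and has a near-identical copy, Hspa1b, next to it in the genome. Probe sets of either gene may detect RNA of both, so their values are uncertain as gene values. The only Hspa1a probe set had a log2 intensity of 6.19 in mIMCD-3, against 5.03 and 4.91 in tip, 5.35 and 5.38 in stalk and 4.80 and 4.97 in mesenchyme. The tissue values lay below the array medians, and mIMCD-3 lay 1.02 above bud (a ratio of 2.03). Hspa1b was brighter in every array, with 11.12 in mIMCD-3, against 8.26 and 8.02 in tip, 9.11 and 8.92 in stalk and 7.42 and 7.22 in mesenchyme. Its difference from bud was 2.54 by this probe set and 3.24 and 2.85 by the other 2. Both genes shared the order of the group means, with mIMCD-3 highest, then stalk, tip and mesenchyme. For Hspa1a, however, the tip mean was 0.09 above the mesenchyme mean and the arrays of these groups overlapped.

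**Figure D3:**
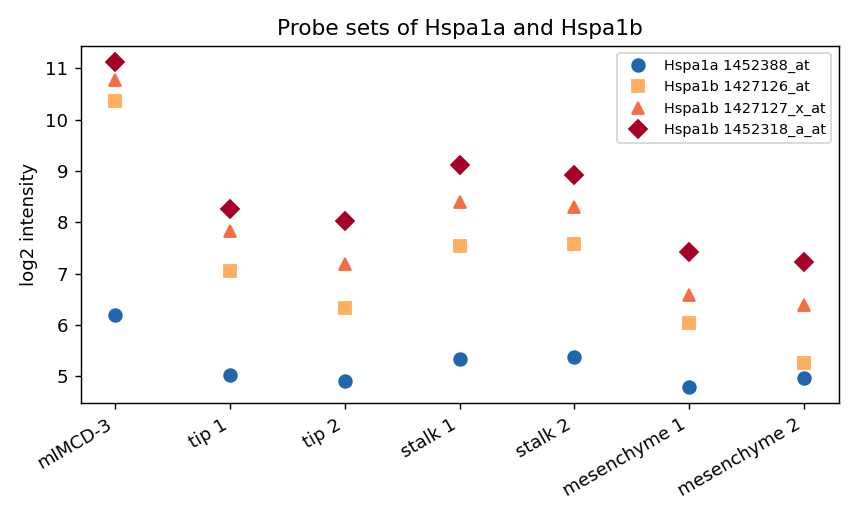
Log2 intensity (vertical axis) on each of the 7 arrays for the single Hspa1a probe set and the 3 Hspa1b probe sets. The mIMCD-3 array is highest in all 4 sets, and the stalk arrays exceed the tip and mesenchyme arrays in each.

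The embryonic tissues were then compared with each other, where replicates allow a test. Values are limma differences with the standard error of the fit, and p-values are adjusted by Benjamini-Hochberg over all genes. In bulk tissue, fewer cells of a type and less RNA per cell cannot be told apart. Between tip and mesenchyme, 3 of the 9 genes passed an adjusted p of 0.05: Hspb1 and Nfat5 were higher in tip and Cryab was lower. Of all genes, 15.7% passed in this comparison, with 7.38% of all genes higher and 8.37% lower. Arrays did not overlap between tip and mesenchyme for 7 of the 9 genes and for 45.1% of all genes. With each probe set tested on its own, 6 of the 25 passed, against 12.9% of all probe sets. The median difference over the 9 genes was 0.09, and over all genes 0.01.

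Hspb1 was 0.98 ± 0.16 higher in tip than in mesenchyme (SE, 2 arrays each, adjusted p = 0.00469), with no overlap between the arrays. Nfat5 was 0.77 ± 0.16 higher in tip (adjusted p = 0.0141), also without overlap. Without mesenchyme replicate 2 the Nfat5 difference was 0.67 and no longer passed (adjusted p = 0.0915). Cryab was lower in tip (-0.86 ± 0.14, adjusted p = 0.00471), although both groups lay in the dim range and the other bright Cryab probe set gave -0.35 (adjusted p = 0.167 with every probe set tested). Cryab is also a muscle gene, and the summed intensity of 8 muscle markers was 402 and 505 in tip and 905 and 882 in mesenchyme, with 0 of 8 higher and 3 of 8 lower in tip. The part of these cells in the Cryab difference was not tested.

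Between stalk and mesenchyme, 2 of the 9 genes passed, both higher in stalk, and 0 were lower. Over all genes 5.54% passed, with 4.3% higher and 1.24% lower. Arrays did not overlap for 7 of the 9 genes and for 47.9% of all genes, and 4 of the 25 probe sets passed when each was tested, against 4.12% of all. Hspb1 was 1.37 ± 0.16 higher in stalk (adjusted p = 0.00224), and its second probe set gave 2.03 (adjusted p = 0.000696 with every probe set tested). Nfat5 was 0.95 ± 0.16 higher (adjusted p = 0.0135), but it did not pass without stalk replicate 1 (0.0829), stalk replicate 2 (0.0862) or mesenchyme replicate 2 (0.0912). Of its other probe sets, 1 also passed, with 0.93 in tip and 0.97 in stalk against mesenchyme, and the remaining 4 did not.

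Slc6a6 was 0.54 ± 0.16 above mesenchyme in tip without passing the test (adjusted p = 0.0636), and it passed once the replicate number was a block (adjusted p = 0.0113). The block raised the share of all genes called to 24.0% between tip and mesenchyme, 9.94% between stalk and mesenchyme and 20.6% between tip and stalk, and the blocked counts below are to be read against these. In the stalk, Cryab (-0.49, adjusted p = 0.128) and Hspa1a (0.48, adjusted p = 0.103) against mesenchyme likewise passed with the block, at 0.0378 and 0.0328. Hspb8, Slc5a3, Ptgs2 and Slc6a12 passed in neither comparison with mesenchyme, with differences between -0.39 for Hspb8 in tip and 0.36 for Slc5a3 in tip. For Hspb8, 1 of the 3 probe sets was lower in tip when every probe set was tested (-0.75, adjusted p = 0.0249).

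Between tip and stalk, 0 of the 9 genes passed in the limma fit, where 9.83% of all genes did (2.86% higher and 6.97% lower). With each probe set tested, 1 of the 25 passed, against 7.86% of all. It belongs to Slc6a6 and was 0.79 higher in tip (adjusted p = 0.0117), a difference that the brighter set used for this gene did not pass (0.28, adjusted p = 0.371). At an unadjusted p under 0.05 there were 3 of the 9, beside 21.9% of all genes: Cryab, Hspb1 and Hspa1a, each lower in tip, at -0.37, -0.39 and -0.39. Their adjusted p-values were 0.18, 0.217 and 0.121, and with the replicate number as a block Hspa1a alone passed (adjusted p = 0.0433). For Hspb1 the mean over its probe sets passed as well (-0.55, adjusted p = 0.0329). Arrays of tip and stalk did not overlap for these 3, nor for Ptgs2 and Slc6a6, 5 of 9 genes beside 50.8% of all genes. The Hspa1b copy was lower in tip than in stalk (-0.87 ± 0.15, adjusted p = 0.0099) and 1.69 ± 0.15 higher in stalk than in mesenchyme (adjusted p = 0.000568). Without stalk replicate 1 its difference between tip and stalk was -0.77 (adjusted p = 0.104).

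The stalk arrays, highest of the tissues for both Hsp70 genes, also held the highest sums of immediate early genes, which are known to respond quickly to many stimuli. The summed intensity of the 12 genes was 7503 in mIMCD-3, 15882 and 14301 in tip, 23252 and 22991 in stalk and 16741 and 16566 in mesenchyme. Between stalk and mesenchyme 6 of the 12 were higher and 0 lower, and between tip and stalk 4 were lower and 0 higher. In mIMCD-3, 5 of the 12 lay at least 1 log2 unit below all tissue arrays and 2, Junb and Ier3, as far above them. The relation of these genes to the tissue order of Hspa1a and Hspa1b was not tested.

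**Figure D4:**
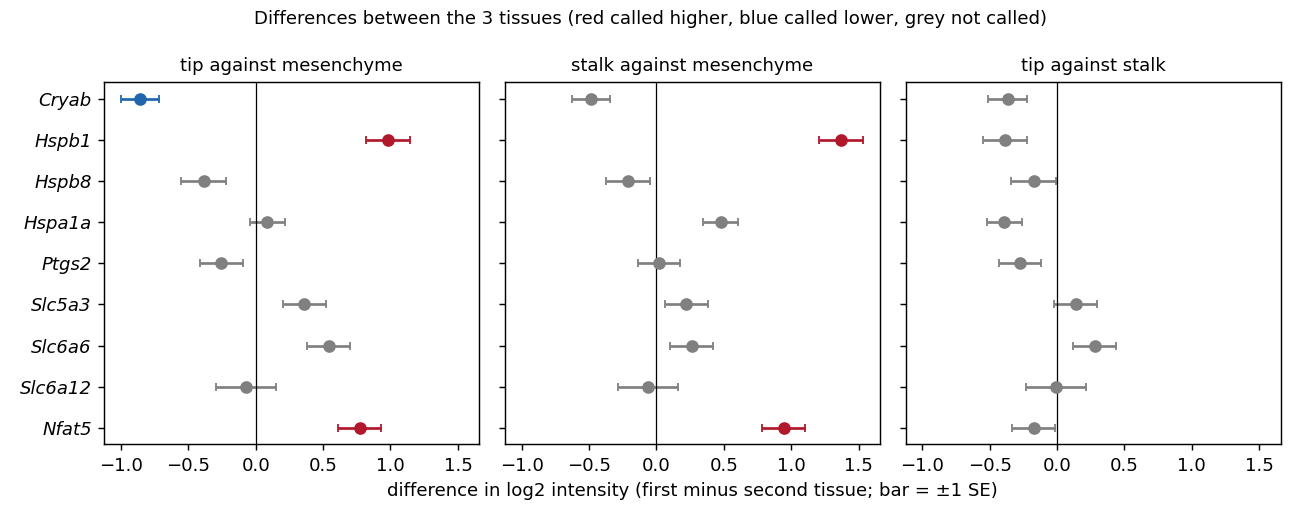
Difference in log2 intensity (horizontal axis, first minus second tissue, bars of 1 SE from limma) for the 9 measured genes in the 3 comparisons between tissues. Red marks genes called higher, blue lower and grey not called. Hspb1 (0.98 and 1.37) and Nfat5 (0.77 and 0.95) are called above mesenchyme in tip and stalk, and Cryab (-0.86) is called below it in tip.

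Markers were used to check the labelled samples. All 8 measured bud epithelium markers were higher in tip and in stalk than in mesenchyme, and 7 of 8 mesenchyme markers were lower in both. The stalk held more signal of other cells than the tip. In tip against stalk, 7 of 8 mesenchyme, 8 of 8 endothelial, 4 of 8 myeloid and 4 of 6 erythroid markers were lower and 0 higher. Summed endothelial intensity was 2059 and 1979 in stalk and 804 and 775 in tip. The part of these cells in differences between tip and stalk was not tested. In mIMCD-3, 5 of the 8 bud epithelium markers lay above the array median of 5.40: the junction and keratin genes Cdh1 (10.88), Epcam (10.79), Krt8 (12.31), Krt18 (12.01) and Cldn4 (9.41). Ret (4.12), Calb1 (3.38) and Gata3 (4.48) lay below it, and 5 of the 8 were at least 1 log2 unit below the bud mean, with a median of -1.45. Of 8 collecting duct markers, 2 lay above the array median in mIMCD-3, the transcription factor gene Tfcp2l1 (7.0) and the sodium channel gene Scnn1a (6.22), and 5 were at least 1 log2 unit below the bud mean. Scnn1a lay above the array median in all 6 tissue arrays as well, with a bud mean of 6.42. The water channel gene Aqp2 (5.15) was below the array median in the cell line, as it was in all 6 tissue arrays. The summed intensity of 8 collecting duct markers was 398 in mIMCD-3, 2079 and 1934 in tip, 2650 and 2622 in stalk and 1118 and 1096 in mesenchyme. The array of the cell line thus shows general epithelial genes, while most markers of the collecting duct list were low on it. Median probe set intensity was 42.1 in mIMCD-3 and 45.7 to 49.2 in the tissues.

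Genes of the same pathways were examined through lists of genes other than the members. Their counts are to be read beside the shares of all genes. In tip against mesenchyme 7.38% were higher and 8.37% lower, and in tip against stalk 2.86% and 6.97%. In stalk against mesenchyme 4.3% were higher and 1.24% lower. In mIMCD-3, 6.31% lay above the tissues and 5.13% below. Of 7 further small heat shock protein genes, Hspb6 alone was beyond the tissue range in mIMCD-3, at 1.98 above bud. Hspb11, whose product works in cilia, was the only one to pass between tissues, lower in tip than in mesenchyme (-0.70, adjusted p = 0.0324) and -0.75 against stalk (adjusted p = 0.0356), and neither call held when any array other than tip replicate 1 was left out. The adjusted p was then 0.0535 to 0.133 against mesenchyme and 0.0508 to 0.192 against stalk. With the block, 2 of the 7 passed in each of these comparisons. By the mean over its probe sets Hspb11 was -0.33 against mesenchyme (adjusted p = 0.131) and -0.36 against stalk (adjusted p = 0.123). The heat shock transcription factor list held 4 measured genes: Hsf2, Hsf4, Hsf5 and Hsbp1, which encodes a heat shock factor binding protein. Hsf1 was not measured, and Hsf2, Hsf4 and Hsf5 lay below the array median on every array. Of the 4 genes, 0 passed in any tissue comparison in limma, with or without the block. At an unadjusted p under 0.05 there was 1, between tip and stalk. All 4 lay within 1 log2 unit of the tissue range in mIMCD-3.

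Among 21 Hsp70 and Hsp90 chaperones and partners, 3 lay above the tissues in mIMCD-3 and 1 below. Hspa4l, an exchange factor for Hsp70, was 3.73 above bud, Hspa1b 2.54 and the Hspb8 partner Bag3 1.79, while Hspa4, a relative of Hspa4l, was lower (-1.69). By the mean over its 4 probe sets Hspa4 was -0.76 from bud and within 1 log2 unit of the tissue range. In tip against mesenchyme, 1 was higher (Hspa1b, 0.82, adjusted p = 0.00799) and 3 were lower. The 3 were Hspa12b, known from endothelium (-2.17, adjusted p = 4.9e-05), Hspa2 (-1.38, adjusted p = 0.000954) and Bag3 (-0.74, adjusted p = 0.0133). Between tip and stalk 3 of the 21 were lower, and 5 passed with the block. Between stalk and mesenchyme Hspa1b alone passed, and 2 of the 21 passed with the block. Without mesenchyme replicate 2, Hspa1b (0.72, adjusted p = 0.0583) and Bag3 (-0.65, adjusted p = 0.0891) did not pass. Endothelial markers moved with Hspa12b: their summed intensity was 804 and 775 in tip and 3439 and 3113 in mesenchyme, with 8 of 8 lower. Their part in the Hspa12b difference was not tested.

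Of 14 genes for prostaglandin synthesis, breakdown and receptors, 2 lay above the tissues in mIMCD-3 and 1 below. The receptor gene Ptger4 was 2.56 above bud, whose mean joins tip at 5.63 and stalk at 7.74. It lay 1.30 above mesenchyme and 1.19 above the highest tissue array. The prostaglandin transporter gene Slco2a1 was 1.37 above bud, and the prostacyclin synthase gene Ptgis -2.41 from it. By the mean over its 4 probe sets Slco2a1 was 0.56 above bud and no longer beyond the range. Between tissues, 3 genes were lower in tip than in mesenchyme and 0 higher. Hpgd, whose enzyme breaks prostaglandins down, was lower in tip (-3.67, adjusted p = 2e-05) and in stalk (-1.87, adjusted p = 0.00174). Ptger4 was lower in tip against mesenchyme (-2.31) and against stalk (-2.11). Pla2g4a, whose phospholipase frees the arachidonic acid that Ptgs2 uses, was lower in tip against stalk (-1.26, adjusted p = 0.00211). With the replicate block, 6 of the 14 passed between tip and mesenchyme and 3 between stalk and mesenchyme, where 1 did without it. Markers of other cells were also lower in tip than in mesenchyme: 6 of 8 myeloid, 8 of 8 endothelial and 4 of 6 erythroid markers, and 0 of these higher. The summed myeloid intensity was 311 and 426 in tip and 1164 and 1023 in mesenchyme, and the erythroid sum 9654 and 9943 in tip and 24152 and 23731 in mesenchyme. The part of these cells in the differences of the prostaglandin genes, and of the genes lower in tip in the lists that follow, was not tested.

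Of 18 further genes that handle polyols, inositol, betaine or taurine, 3 lay above and 2 below the tissues in mIMCD-3. Chdh, which makes the precursor of betaine from choline, had a log2 intensity of 9.13 in mIMCD-3, against 5.13 and 4.71 in tip, 4.69 and 4.66 in stalk and 4.44 and 4.38 in mesenchyme. This was 4.34 above bud, beside a betaine transporter probe set that stayed dim. Akr1b8, an aldo-keto reductase related to aldose reductase, was 1.91 above bud, and Impa1, which frees inositol from its phosphate, 1.39. By the mean over its 3 probe sets Impa1 was 0.87 above bud and no longer beyond the range. The taurine synthesis gene Cdo1 (-2.88) and the inositol transporter gene Slc2a13 (-2.38) were the 2 below. In tip against mesenchyme, Pnpla6, whose enzyme forms the osmolyte glycerophosphocholine, was 0.91 higher (adjusted p = 0.00445) and the choline transporter gene Slc44a1 0.60 higher (adjusted p = 0.0197). By the mean over its 4 probe sets Slc44a1 was 0.19 higher and did not pass (adjusted p = 0.484). Slc44a1 did not pass without mesenchyme replicate 1 (0.59, adjusted p = 0.106), mesenchyme replicate 2 (0.60, adjusted p = 0.0946) or either stalk array (0.60, adjusted p = 0.0548). Cdo1 (-1.48) and Akr1b8 (-1.11) were lower in tip, and both were also lower against stalk (-1.28 and -1.21). With the block, 3 genes of the list passed between stalk and mesenchyme in place of 1, and 4 between tip and stalk in place of 2.

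Among 18 genes of the NFAT family and of hypertonic signalling, 0 lay above and 2 below the tissues in mIMCD-3. The kinase gene Stk39 was -2.04 from bud and Nfatc4 -1.58. By the mean over all probe sets of a gene Stk39 was -1.39 and still below the range, and Nfatc4 was -0.87 and within 1 log2 unit of it. Between tissues, 4 genes were lower in tip than in mesenchyme and 0 higher, 3 were lower than in stalk (5 passed with the block), and 0 passed between stalk and mesenchyme in limma with or without the block, where 1 had an unadjusted p under 0.05. Sgk1, a salt-responsive kinase gene, was lower in tip against mesenchyme (-2.10, adjusted p = 0.000204) and against stalk (-1.73, adjusted p = 0.00114). Nfatc4 (-0.69), Map3k3 (-0.79) and Wnk1 (-0.65) were the others against mesenchyme. Each lost this call with 1 array left out: Nfatc4 without mesenchyme replicate 2 (-0.61, adjusted p = 0.0747), Map3k3 without mesenchyme replicate 1 (-0.68, adjusted p = 0.0773) and Wnk1 without replicate 1 (-0.63, adjusted p = 0.1) or replicate 2 (-0.67, adjusted p = 0.0772). By the mean over all probe sets of a gene, Nfatc4 (-0.30, adjusted p = 0.181) and Wnk1 (-0.25, adjusted p = 0.212) did not pass against mesenchyme. Nfat5 was higher in tip than in mesenchyme, unlike the 4 genes of its list that passed in the main fit. Most of the 18 genes passed in neither direction.

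Of 10 genes for solute and water transport of the inner medulla, Atp1b1 alone lay above the tissues in mIMCD-3. This subunit gene of the sodium pump was 2.49 above bud, and it was 2.05 higher in tip and 2.12 higher in stalk than in mesenchyme (adjusted p = 2.6e-05 and 8.1e-05). The pump regulator gene Fxyd4 was 1.70 higher in stalk than in mesenchyme (adjusted p = 0.000564) and lower in tip than in stalk (-1.20, adjusted p = 0.00214). The vasopressin receptor gene Avpr2 was 0.98 higher in tip than in mesenchyme (adjusted p = 0.00719).

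**Figure D5:**
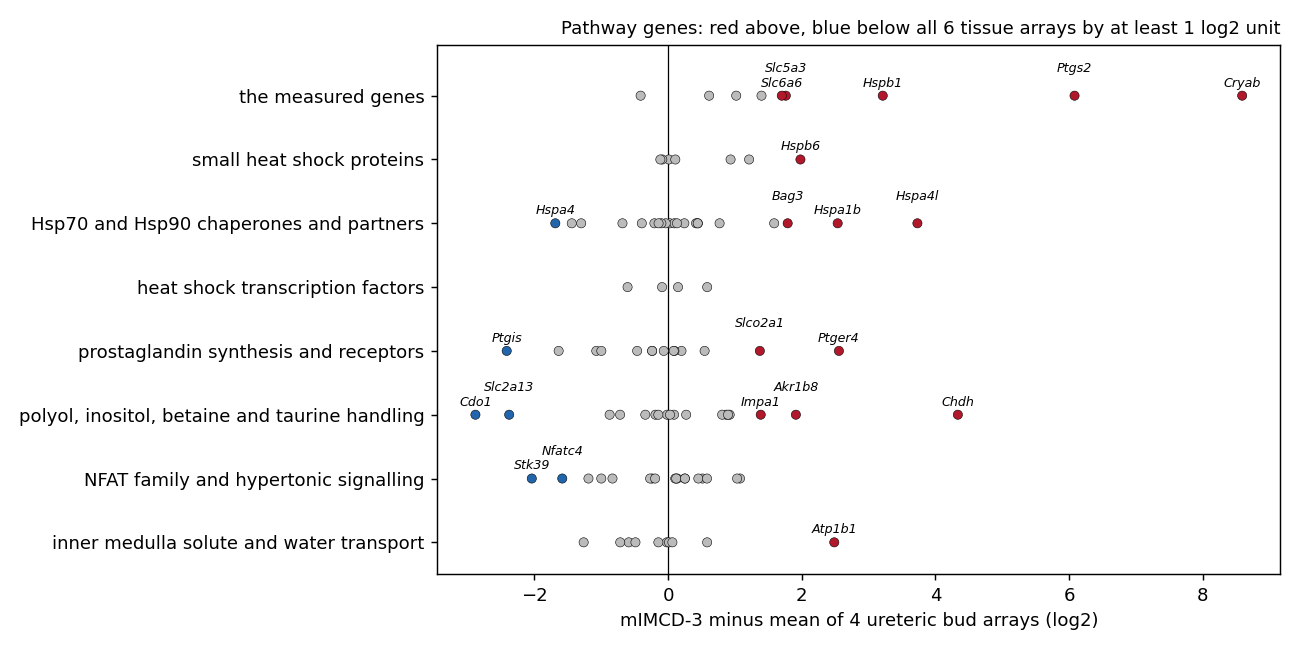
Log2 difference of mIMCD-3 minus the mean of the 4 bud arrays (horizontal axis) for the 9 measured genes and for each pathway list, 1 point a gene. Red points lie at least 1 log2 unit above all 6 tissue arrays and blue points as far below. Cryab (8.59) and Ptgs2 (6.08, against dim tissue values) lie right of every pathway gene, of which Chdh (4.34) and Hspa4l (3.73) are farthest right.

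Profiles over the 7 arrays were compared by the root mean square difference in log2 after each gene was centred on its own mean. Among 2133 genes that range over at least 2 log2 units, the nearest to Cryab was Ifit3 at 0.68, an interferon-induced gene, followed by the sciellin gene Scel at 0.74. No gene came close to the Cryab profile, whose range is the widest of the members. The nearest to Ptgs2 were Cdkn2a, a cell cycle inhibitor gene, at 0.25 and Ifit3 at 0.30. For Hspb1 they were the growth factor gene Hbegf at 0.20, Prkaa2 at 0.22 and the bud ligand gene Wnt7b at 0.24. For Nfat5 they were the ubiquitin ligase gene Nedd4l at 0.23 and Ahr at 0.25. Nfat5 itself ranges over 1.58 log2 units, so genes with a range like its own were not among the candidates.

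By the probe set used for each gene, Slc5a3 and Slc6a6 had the closest profiles of any pair of members, at 0.14. Over all probe sets, mIMCD-3 minus bud ran from 0.04 to 3.35 for Slc5a3 and from -0.28 to 1.70 for Slc6a6. The nearest genes to Slc5a3 were Ubl3 at 0.06 and Trappc10 at 0.08, and to Slc6a6 Gfm1 at 0.09 and Slc33a1 at 0.10. Of 2132 candidate genes, 32 were nearer to Slc5a3 than Slc6a6 was, and 20 were nearer to Slc6a6 than Slc5a3 was. Cryab and Ptgs2 differed by 0.86. These distances describe 7 arrays with 1 cell line sample, and in most members the single mIMCD-3 value makes up most of the profile. In Nfat5 the mesenchyme arrays (7.63 and 7.42) stood apart from the bud as well as mIMCD-3 (9.00). Slc6a12 was nearly flat, with a range of 0.80 over the 7 arrays.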

How the data were processed

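Affymetrix mouse genome arrays were processed by robust multichip analysis (RMA) over all 7 arrays together, per the labels and the submitters' processing notes. The software version is not given in the sources used here. RMA corrects background, equalises probe distributions and summarises probe sets, without detection calls, and it compresses differences of dim genes. The deposited numbers are linear intensity values (5.08 to 19587), and log2 was taken here.

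Each gene was represented by the probe set, among those annotated to it alone, whose mean across the 7 arrays was highest. Names follow the annotation of the array, whose Entrez identifiers match the RefSeq table of GRCm38.p6 in 99.4% of cases. The annotation used ties no probe set to Akr1b3 alone. The 6 tissue arrays were fitted together with limma 3.58.1 (R 4.3.3) with 1 coefficient per group, two-sided, with calls at p under 0.05 after Benjamini-Hochberg adjustment across 18193 genes. The single mIMCD-3 array was described by size only: at least 1 log2 unit beyond all 6 tissue arrays. Array number limits precision. The limma fit without the block was tested on simulated data. Figures used matplotlib 3.10.9 (Python 3.11.15).

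The members and the lists were chosen with earlier results of these data known. Named genes are all members, list genes called between tissues (up to 6 a list) or beyond the tissue range in mIMCD-3 (up to 4 a list), markers that check a label, and up to 3 nearest profiles per member; Hspa1b is in a list. Impa1, Junb and Ier3 were named after their values were seen, as were the genes of the heat shock transcription factor list. The labels state no pairing of replicate numbers. Replicate differences (1 minus 2) of the groups had correlations of 0.39 (mesenchyme and stalk), 0.57 (mesenchyme and tip) and 0.43 (stalk and tip), all above 0.1. The replicate number was therefore taken as pairing arrays, while the main fit carries no block. In each tissue, replicate 2 had a higher lower quartile and a lower upper quartile than replicate 1. The correlations alone thus cannot show whether material was paired. Blocked values are given where they change the call of a member or move a count of calls by over 1.5 times. Alternatives were the block, variance trend, median centring, a filter on dim genes, other probe set rules, only the groups compared, and each tissue array left out.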

Additional observations from a re-analysis of the deposited data

How the results depend on the processing

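Among the results for the 9 measured genes, comparisons between tissues gave 332 values with the same call and direction, 13 newly past the threshold, 6 no longer past it and 15 of the other sign, none of them called. With the replicate block, 4 members passed between tip and mesenchyme, 4 between stalk and mesenchyme (Cryab and Hspa1a added) and 1 between tip and stalk, beside 24.0%, 9.94% and 20.6% of all genes. The mean over all probe sets gave 1 member between tip and mesenchyme, where Cryab (-0.33, adjusted p = 0.186) and Nfat5 (0.35, adjusted p = 0.0597) no longer passed, and 1 between tip and stalk. Leaving out 1 array at a time gave 2 to 5 members between tip and mesenchyme, with 5 without tip replicate 2 (Hspb8 and Slc5a3 added), and 1 to 3 between stalk and mesenchyme. In mIMCD-3, 8 members lay beyond the tissue range at a limit of 0.5 and 3 at a limit of 2, beside 4485 and 652 of all 18193 genes. Median centring, or leaving out mesenchyme replicate 2, gave 6, with Hspb8 added, and the share of all genes under these alternatives is not given here. By the mean over all probe sets of a gene, Slc6a6 (0.47 above bud) fell within 1 log2 unit of the range. Hspb8 (1.84 above bud) then lay beyond it, so the genes counted depend on the probe set rule. Hspb1 against mesenchyme passed in every alternative run for tip and stalk.

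Signs of small differences turned. Ptgs2 between stalk and mesenchyme was -0.02 after median centring and -0.17 to 0.21 with 1 array left out. Slc5a3 between stalk and mesenchyme was -0.04 by the mean over probe sets, and between tip and stalk it was -0.06 to 0.34. Slc6a12 between tip and stalk was 0.04 after centring, and with 1 array left out it was -0.14 to 0.12 there, -0.40 to 0.25 between tip and mesenchyme and -0.39 to 0.26 between stalk and mesenchyme. With 1 array left out, Hspa1a between tip and mesenchyme was -0.00 to 0.17, Hspb8 between tip and stalk -0.37 to 0.03, and Nfat5 between tip and stalk -0.35 to 0.01. Where an array left out leaves 1 in its group, that array is assumed to vary like the other groups. The cause of these changes was not tested.

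Over all genes, the main fit called 1342 higher and 1523 lower in tip against mesenchyme, 782 and 225 in stalk against mesenchyme, and 521 and 1268 in tip against stalk. With the block these were 2037 and 2331, 1231 and 577, and 1623 and 2131. A variance trend gave 354 lower in stalk against mesenchyme and 890 higher in tip against stalk. With every probe set tested, more features enter, and 2083 were higher and 2429 lower in tip against mesenchyme and 2009 lower in tip against stalk. Leaving out a mesenchyme or stalk array gave as few as 427 higher and 92 lower in stalk against mesenchyme, 197 higher and 724 lower in tip against stalk, and 987 lower in tip against mesenchyme. The filter on the dimmest 40% of genes dropped Cryab, Hspa1a, Ptgs2 and Slc6a12. Dim values limit these 4, and 2 arrays a group limit every test. Of the pathway genes named, Hspb11, Hspa1b, Wnk1, Slc44a1, Nfatc4, Bag3, Pla2g4a, Map3k3 and Pnpla6 lost a call in at least 1 alternative. With the block, the counts of pathway genes not given above moved by at most 1 gene a list.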
